A study of Drosophila melanogaster with 12 samples.

Results

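Adult intestines of male Drosophila melanogaster hemizygous for the deletion allele Hinfp2 were set against adult intestines of the control strain FRT19A. The comparison rests on 2 of the 12 libraries of the series, chosen by their titles, with 1 library a genotype. It has no replicate check and carries no p-value. The mutant genotype is Y/Hinfp2; +/+; +/+ and the control genotype is Y/FRT19A; +/+; +/+, so both carry wild-type autosomes. The labels give the mutants an age of 8 to 9 days and the controls 5 to 6 days, so age and genotype cannot be told apart. Each library pooled about 50 guts of flies raised at 25 °C and was read at 100 bp. The tissue label reads intestine, while the series' design text speaks of midguts taken with Malpighian tubules, the kidney-like organs of the fly. Single adult libraries of Hinfp2 males that also carried tub-Gal4 with UAS-Hinfp-HA (the Hinfp rescue) or with UAS-His1-HA (the His1 rescue), at 8 to 9 days, are given beside the pair as values. The tub-Gal4 driver is active in nearly all cells, so these transgenes were not limited to the gut. A further 8 libraries came from guts of pharate adult males, which are fully formed flies still inside the pupal case. They held 2 libraries each of Hinfp2, the point mutant allele Hinfp3, and the control strains FRT19A and W1118, with the same ages given for mutants and for controls. Those of Hinfp2 and FRT19A serve below as a second measurement of the same alleles, and those of Hinfp3 and W1118 only add to the estimate of spread in the fits.

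Hinfp encodes a zinc finger protein whose vertebrate counterpart activates histone H4 genes. In Drosophila it has been tied to transcription of the linker histone, which binds the DNA between nucleosomes and helps to keep heterochromatin compact. Transposable elements are kept silent in somatic cells by such compact chromatin and by small interfering RNAs, and in the germline mainly by piRNAs. The adult gut is a barrier epithelium in which enterocytes digest and absorb food. Damage or infection there makes cells release Upd cytokines that act through JAK-STAT signalling, and induces antimicrobial peptides through the Imd pathway.

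The deposited counts summed over genes to 18005701 in the mutant, 17991664 in the Hinfp rescue, 18213514 in the His1 rescue and 20271512 in the control. Levels are CPM, which are counts scaled to 1000000 gene counts, and element rows were left out of the denominator. A ratio is mutant over control on the log2 scale, taken for features with a mean of at least 20 counts over the pair, and a count of 0 was set to a floor of 3 counts. "Higher" and "lower" in counts of genes mean a difference of at least 2-fold. Intervals are 95% intervals that cover counting error only, since reads without molecular identifiers are not independent molecules.

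The library labelled mutant held less Hinfp RNA than the control, but not none. Hinfp (FBgn0025635, BDGP6 chromosome X, 625542 to 628016) had 95 counts in the mutant, against 244 in the control. These were 5.28 CPM (exact Poisson interval 4.27 to 6.45) in the mutant and 12.04 CPM (10.6 to 13.6) in FRT19A, so the intervals did not overlap. The mutant level was 43.8% of control and the log2 ratio was -1.19 (-1.55 to -0.84). The Hinfp rescue held 28734 counts or 1597 CPM, and the His1 rescue 114 counts or 6.26 CPM. Of the 4 adult libraries only the Hinfp rescue stood above FRT19A. In the authors' deposited table the log2 fold change of Hinfp stood at -1.43. How much of the gene the allele removes is not given in the sources used here, so reads from a part that was left cannot be told from full transcripts. The adult table has no summed row for the linker histone genes, which are not analysed here in adults. In pharate guts the summed linker histone row HIS1 held 19 and 8 counts in the Hinfp2 libraries, against 166 and 3999 in the FRT19A libraries titled SE and PE. These were 0.76 and 0.36 CPM against 5.78 and 149 CPM, so the control libraries differed widely. The HIS1 log2 ratio was -2.92 (SE) and -8.67 (PE). The HIS1 row was not called by edgeR with Benjamini-Hochberg adjustment (adjusted p = 0.311, and 0.113 with SE and PE as a block). Core histone rows held far fewer counts in SE than in PE in both genotypes. HIS2B, for example, had 293 (SE) and 7381 (PE) in Hinfp2, and 236 and 18376 in FRT19A. Log2 ratios in SE and PE were -0.48 and -0.74 for HIS2A and 0.52 and -1.02 for HIS2B. They were 1.87 and -0.78 for HIS3, and -0.71 and -0.28 for HIS4.

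Transposable element RNA was far more abundant in the mutant intestine. Element counts equalled 19.8% of the gene counts in the mutant, against 1.73% in FRT19A. They equalled 4.28% in the Hinfp rescue and 4.68% in the His1 rescue. Of 156 element families in the table, 136 passed the mean of 20 counts, and 103 of these (75.7%) were higher in the mutant and 0 were lower. The median log2 ratio was 2.25, beside 0.21 over all 11074 genes tested. A ratio above 0 was seen in 125 families and below 0 in 11. At least 4-fold higher were 74 families, at least 16-fold 22 and at least 64-fold 9. Near-identical copies share reads, and how such reads were assigned is not given in the sources used here, so a family's value can include reads of a related family.

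The retrotransposon copia alone made up most of the added RNA. It had 2625652 counts in the mutant, against 41078 in FRT19A, a log2 ratio of 6.17. It was 73.5% of all element counts in the mutant and 11.7% in FRT19A. Without copia, element counts still equalled 5.26% of gene counts in the mutant, 2.51% in the Hinfp rescue and 2.29% in the His1 rescue, against 1.53% in FRT19A. Most of the added element counts were thus copia's, and the count of families did not hang on it.

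The steepest differences were in retrotransposons with long terminal repeats (LTR). The family accord had 51702 counts in the mutant, against 78 in FRT19A (log2 ratio 9.54), and aurora_element 4677 against 38 (7.11). The gypsy-type family gypsy12 had 32616 counts in the mutant, against 329 in FRT19A (6.80), and its row gypsy12_2 4119 against 70 (6.05). Further families past 5.9 were Dsim_ninja (6566 counts in the mutant and 67 in FRT19A, 6.79), GATE (27139 and 402, 6.25), 1731 (73469 and 1238, 6.06) and Osvaldo (223 and 4, 5.97). Bari1, a DNA transposon of the Tc1 type, had 21497 counts in the mutant and 322 in FRT19A (6.23), so the difference was not limited to elements that move through RNA. The Dsim prefix is the table's own name for a sequence described from Drosophila simulans, and it may collect reads of relatives.

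The rescue libraries held less of each of these 10 families than the mutant, but the 10 were picked by their mutant ratio. The accord row had 1702 counts in the Hinfp rescue and 10293 in the His1 rescue, copia 317994 and 436520, GATE 832 and 4217, and 1731 had 957 and 3874. All 10 families had more counts in the His1 rescue than in the Hinfp rescue. Not every raised family was lower in both rescues. HMS_Beagle had 10534 counts in the mutant, 13746 in the Hinfp rescue, 5174 in the His1 rescue and 604 in FRT19A. The family mdg1 had 14460 in the mutant, 10315 in the Hinfp rescue, 27510 in the His1 rescue and 7273 in FRT19A. These comparisons share the mutant library, and no rescue has a second library.

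Some abundant families did not move with the rest. The LTR element 412 had 29792 counts in the mutant, against 59307 in FRT19A, the lowest ratio at -0.82, which reached -1.05 when both libraries were scaled with TMM factors. The DNA transposon hobo stood at -0.63, Tc1_2 at -0.26, invader1 at -0.25 and Dm88 at -0.14. Abundant families chosen after their values were seen gave further values: blood was at -0.09, flea at -0.06 and roo at -0.01. The family roo had 17548 counts in the mutant, 158604 in the Hinfp rescue and 27936 in the His1 rescue, against 19850 in FRT19A. The rows 3S18 (117395 counts in the mutant and 14247 in FRT19A, 3.21), micropia (53729 and 7071, 3.10) and jockey (36273 and 7862, 2.38) were higher.

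**Figure D1:**
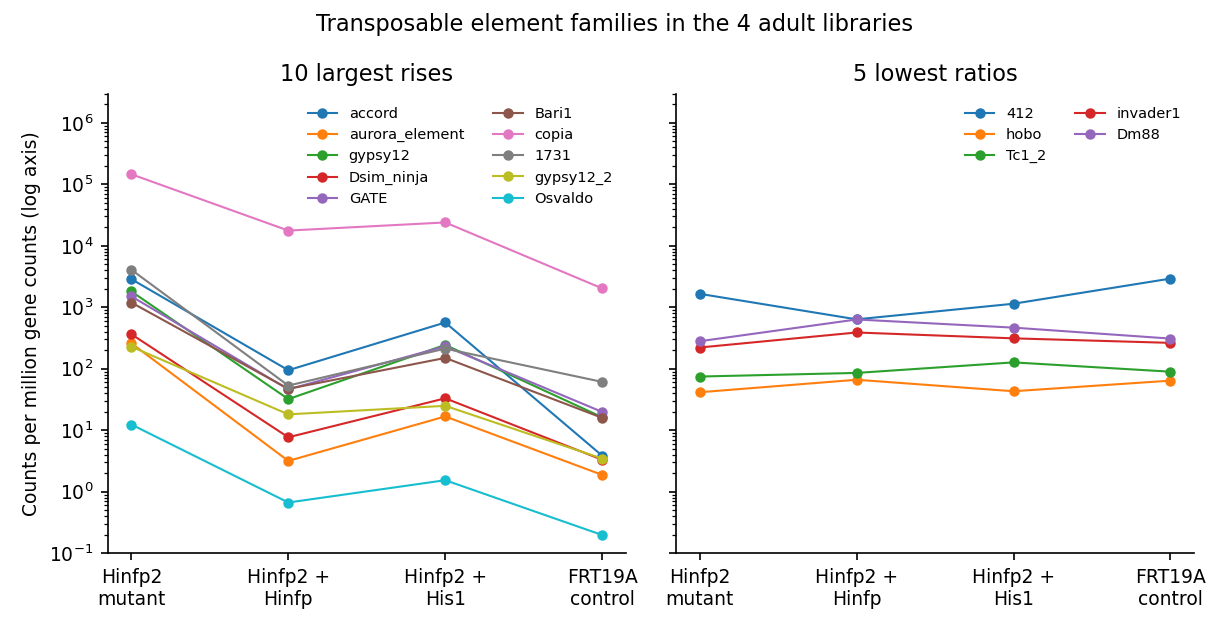
Levels of named transposable element families in the 4 adult libraries, in CPM on a log axis. Each line is 1 family and each point 1 library. The 10 families on the left are highest in the mutant, among them accord with 51702 counts there against 78 in FRT19A, while the 5 on the right have log2 ratios between -0.82 and -0.14.

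Among genes, the shift was mostly upward and mostly in genes that were near 0 in the control. Of 11074 genes tested, 3194 (28.8%) were higher in the mutant and 1252 (11.3%) were lower. At 4-fold these were 2124 (19.2%) and 247 (2.23%). TMM scaling lowered every log2 ratio by 0.23 and split the genes into 2775 higher and 1797 lower, or 60.7% higher among those past 2-fold in place of 71.8%. All 484 genes with 0 counts in FRT19A were higher, as were 1273 of 1305 genes with 1 to 19 counts, but a gene under 20 counts could pass the mean of 20 only if the mutant held more. Among the 9252 genes with at least 1 CPM in FRT19A, a limit chosen after the data were seen, 1416 were higher and 1252 lower, with a median ratio of 0.00.

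Transcripts of the testis moved with the mutant library. Of 36 genes typical of testis and male germline, 28 passed the mean count and 27 of these were higher, with a median log2 ratio of 7.91. This and the list counts below stand beside 28.8% higher and 11.3% lower over all genes tested. Members near 0 in FRT19A could pass the mean count only through the mutant, so such counts are descriptions. The summed level of the testis list was 3680 CPM in the mutant, 32.1 CPM in the Hinfp rescue and 47.5 CPM in the His1 rescue, against 49.9 CPM in FRT19A. The sperm chromatin proteins ProtA (344 counts in the mutant and 0 in FRT19A) and ProtB (612 and 1), and the cytosol aminopeptidase S-Lap7 (6851 and 17), stood near 0 in the control. None of the 36 was at 0 in the mutant and 9 were at 0 in FRT19A. In pharate guts the same list summed to 2508 CPM (SE) and 953 CPM (PE) in Hinfp2, against 1065 CPM and 84.6 CPM in FRT19A. The testis lies beside the gut in the abdomen. The part of testis RNA in the results on genes below was not tested, and in pooled tissue more cells of a type and more RNA per cell cannot be told apart. Without the list's members the count of higher genes was 3167. That step could remove only the 27 higher members, so it does not measure the part of testis RNA. All 16 tested genes of the Y chromosome were higher, with a median of 5.08, under the same limit of the mean count.

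Lists of other neighbouring tissues had smaller or mixed differences in the adult pair. Accessory gland and seminal fluid genes summed to 668 CPM in the mutant and 63.1 and 71.5 CPM in the Hinfp and His1 rescues, against 1053 CPM in FRT19A. Of 46 tested members 7 were higher and 14 lower. In the pharate PE pair, however, 39 of 40 members were higher and 1 lower, with a median of 6.48. Only 2 members passed the mean count in the pharate SE pair. Muscle contractile genes had 1 of 16 higher and 0 lower. Malpighian tubule markers had 2 of 16 higher and 4 lower. Among them Uro, the urate oxidase of the tubule, had 30695 counts in the mutant and 1442 in FRT19A (4.58), whereas the potassium channel Irk3 had 4501 and 16022 (-1.66) and Irk1 had 971 and 3373 (-1.63). Fat body genes had 3 of 7 higher and 3 lower, neuronal markers 2 of 6 higher and 0 lower, and blood cell markers 3 of 5 higher and 0 lower.

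**Figure D2:**
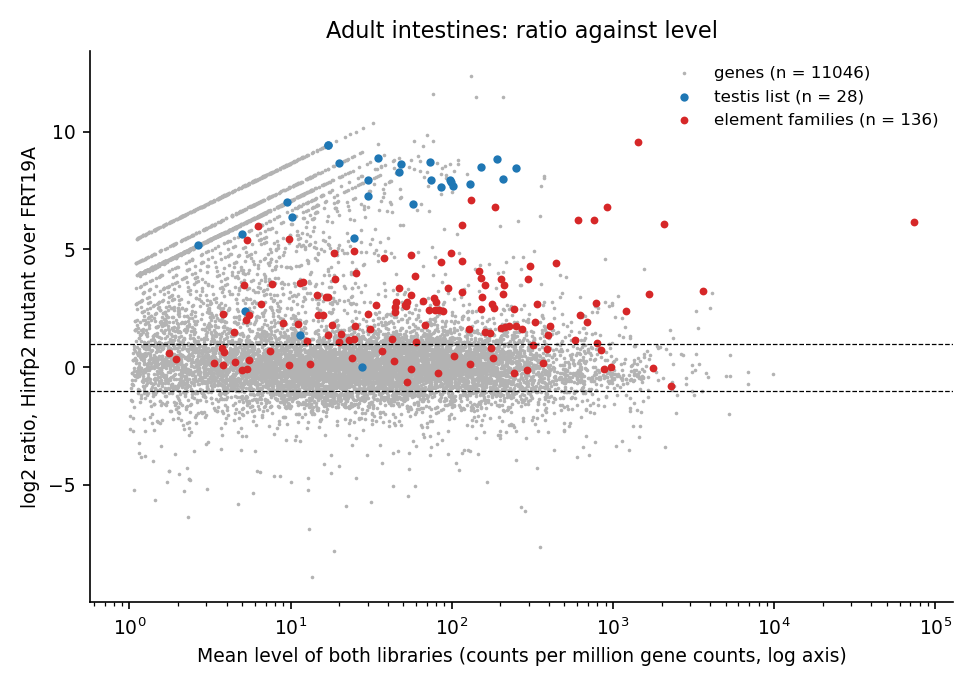
Log2 ratio of the adult Hinfp2 mutant over FRT19A against the mean level of both libraries, for genes (grey), the 28 tested testis genes (blue) and 136 element families (red). Each point is 1 feature and dashed lines mark 2-fold. The slanted rows at upper left are genes with few or 0 counts in FRT19A. The red points lie mostly above the upper line, with copia at far right.

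The 12 largest ratios held stress peptide genes and, besides fest, genes known only by a CG number. CG42792 (BDGP6 2L, 15864929 to 15865461) had 4706 counts in the mutant and 1 in FRT19A, a ratio of 5298 with a counting interval of 950.5 to 209311. CG6403 (3R, 26735417 to 26736307) had 5054 counts in the mutant and 2 in FRT19A (2845, interval 787.2 to 23498). No role is given here for either gene. TotZ had 2750 counts in the mutant and 1 in FRT19A (3096, interval 555.2 to 122332), and Drsl3 had 7521 in the mutant and 0 in FRT19A, at least 2822-fold higher against the floor. In both pharate pairs these 4 genes also had log2 ratios, or lower bounds of them, above 7. The other 8 genes with the largest ratios were CG34168, CG3345, CG32548, CG6209, CG2127, CG13700, fest and CG12860, each with 786 to 2767 counts in the mutant and 1 to 4 in FRT19A. They stood between 0.64 and 1.73 in the pharate SE pair and between 4.05 and 5.10 in the PE pair. The summed testis list differed less in the SE pair than in the PE pair as well.

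The largest gains in CPM were in 5 genes. Frost (Fst), a gene induced by cold, had 133796 counts in the mutant and 17053 in FRT19A (log2 ratio 3.14). The Hinfp and His1 rescues held 23093 and 23947 counts of it. The haemolymph protein gene mat had 53170 counts in the mutant and 3365 in FRT19A (4.15). The mucin-related gene Mur18B had 92630 and 32920 (1.66), CG5399 had 122247 and 24115 (2.51), and CG42807 had 98335 and 21111 (2.39). Each of these 5 genes also had a ratio above 0 in both pharate pairs.

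The secreted Turandot peptides, which flies make under bacterial, heat and oxidative stress, formed the highest list. Of its 8 genes, 5 passed the mean count and all 5 of these were higher, with a median of 8.03 beside 0.21 over all genes. TotA had 13435 counts in the mutant, against 58 in FRT19A (log2 ratio 8.03), and TotC 13415 against 54 (8.13). TotA had 2303 counts in the Hinfp rescue and 8232 in the His1 rescue, while TotZ had 5 and 28. The list summed to 1687 CPM in the mutant, 276 CPM in the Hinfp rescue and 877 CPM in the His1 rescue, against 6.56 CPM in FRT19A. TotM, named after its values were seen, had 403 counts in the mutant and 13 in FRT19A (5.13). TotA and TotC are near-identical copies and their counts may be shared.

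Cytokines and feedback genes of JAK-STAT signalling, the main route to Turandot genes, were higher, and so was its receptor. The cytokine upd3 had 195 counts in the mutant and 4 in FRT19A (5.78), and upd2 98 and 4 (4.79). Socs36E, a target gene that feeds back on the pathway, had 15943 counts in the mutant and 1178 in FRT19A (3.93). The receptor dome, named after its values were seen, had 3269 and 1274 (1.53). The kinase hop stood at 0.25 and the transcription factor Stat92E at 0.69, also named after the fact. In all, 6 of 9 tested members were higher and 0 lower. The rescues held 1974 and 2511 counts of Socs36E, and 69 and 35 of upd3.

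Most antimicrobial peptides were higher in the mutant. Of 19 genes, 15 passed the mean count, 14 were higher and 1 was lower, with a median of 5.84. In FRT19A 11 of the 19 were at 0. Besides Drsl3, the attacins AttB (539 counts in the mutant and 0 in FRT19A) and AttD (431 and 0) were at least 202-fold and at least 162-fold higher against the floor. Mtk, the antifungal peptide metchnikowin, went the other way with 40 counts in the mutant and 384 in FRT19A (-3.09). The rescues did not share an order here: AttD had 1045 counts in the Hinfp rescue and 133 in the His1 rescue, and DptA, a diptericin named after its values were seen, had 260 in the mutant, 5133 in the Hinfp rescue, 1626 in the His1 rescue and 0 in FRT19A.

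Upstream immune genes differed less. Among peptidoglycan recognition proteins, which sense bacterial walls, 5 of 10 were higher (3 under TMM scaling) and 0 lower, led by PGRP-SA (349 counts in the mutant and 33 in FRT19A, 3.57), PGRP-LF (286 and 114) and PGRP-LA (1551 and 732, 1.25). In the core of Imd and Toll signalling 6 of 20 were higher and 0 lower, led by the kinase subunit IKKbeta (1266 and 119, 3.58), the Toll ligand spz (261 and 83, 1.82) and the Imd inhibitor pirk (1481 and 520, 1.68). The Bomanin peptides, outputs of Toll, were mixed, with 3 of 9 higher and 2 lower. BomBc1 had 66 counts in the mutant and 10 in FRT19A (2.89), while BomS4 had 19 and 128 (-2.58) and BomS2 had 228 and 1076 (-2.07).

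**Figure D3:**
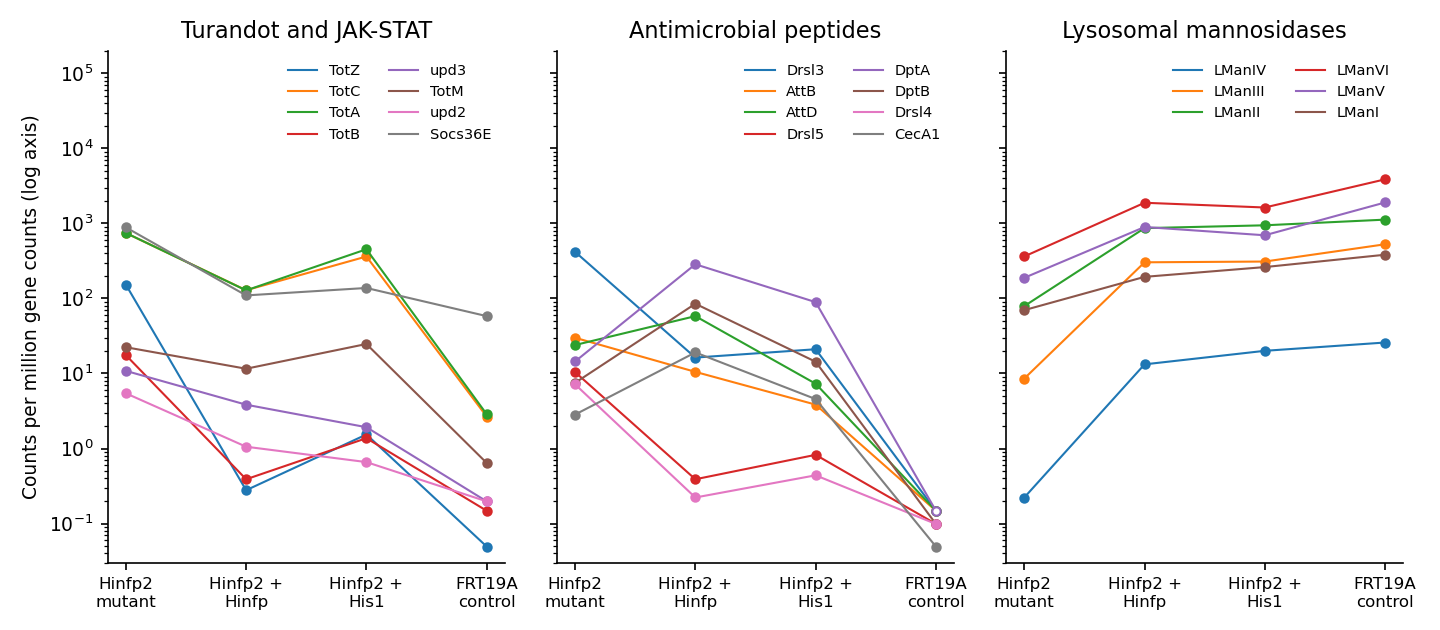
Levels of stress, immune and mannosidase genes in the 4 adult libraries, in CPM on a log axis. Each line is 1 gene, each point 1 library, and open points mark a count of 0 drawn at the floor of 3 counts. Turandot and JAK-STAT genes are highest or near highest in the mutant and lowest in FRT19A, DptA peaks in the Hinfp rescue, and all 6 mannosidases are lowest in the mutant.

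Genes of JNK stress signalling and cell death were higher as a group. Of 14 tested members 10 were higher and 0 lower, with a median of 1.72. The stress-induced factor Ets21C had 2906 counts in the mutant and 270 in FRT19A (3.60). The cell death activators hid (629 and 99, 2.84) and rpr (47 and 10, 2.40) were higher too. The DNA damage list did not move as a group: 4 of 16 tested members were higher (1 under TMM scaling) and 2 lower, with a median of 0.37. Its highest member was p53, with 1381 counts in the mutant and 250 in FRT19A (2.64). Claspin (98 and 342, -1.63) and the ribonucleotide reductase subunit RnrL (508 and 1503, -1.39) were lower. The rescues held 280 and 400 counts of Ets21C, 256 and 247 of hid, and 317 and 351 of p53.

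Growth factor and insulin pathway genes moved the same way. In the EGFR list 7 of 10 were higher and 0 lower (median 1.38): the ligand-processing protease rho had 519 counts in the mutant and 49 in FRT19A (3.58), the feedback protein kek1 95 and 19 (2.49), and sty 4943 and 1360 (2.03). In the insulin list 7 of 11 were higher (4 under TMM scaling) and 0 lower (median 1.14). The receptor InR had 7039 counts in the mutant and 488 in FRT19A (4.02), the translation repressor Thor 15064 and 2179 (2.96), and ImpL2, which binds insulin-like peptides, 3745 and 842 (2.32). InR and Thor are known targets of FOXO, whose own transcript foxo, named after its values were seen, stood at 0.48.

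Small RNA genes were taken as 3 lists. Of 18 tested genes of the cytoplasmic piRNA pathway 12 were higher and 0 lower, with a median of 1.84. The Piwi-family slicer AGO3 had 1361 counts in the mutant and 9 in FRT19A (7.41), krimp, which holds AGO3 in place in germ cells, 162 and 3 (a ratio of 60.8, interval 20.4 to 297.9), and mael 203 and 11 (4.38). The rescues held 14 and 42 counts of AGO3. In the nuclear piRNA list 4 of 9 were higher and 0 lower: del, part of the complex that reads piRNA clusters, had 454 counts in the mutant and 14 in FRT19A (5.19), and piwi had 64 and 10 (2.85). In the siRNA pathway, which acts in somatic cells, 0 of 4 passed 2-fold in either direction (1 was lower under TMM scaling), and AGO2 had 7229 counts in the mutant and 4117 in FRT19A (0.98). Many piRNA genes are germline genes, and the summed testis list moved with them in the adult pair. In the pharate SE pair AGO3 had 1624 counts in Hinfp2 and 55 in FRT19A, a log2 ratio of 5.09, where the testis list summed to 2508 CPM in Hinfp2 and 1065 CPM in FRT19A. In the PE pair AGO3 had 2312 counts in Hinfp2 and 38 in FRT19A (6.22), where the list summed to 953 CPM in Hinfp2 and 84.6 CPM in FRT19A. The part of testis RNA in these values was not tested.

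Genes of heterochromatin itself were close to control. Of 18 tested members 2 were higher and 0 lower, with a median of -0.06, and under TMM scaling 1 was higher and 1 lower. The 2 higher genes were HP6 (91 counts in the mutant and 20 in FRT19A, 2.36), a relative of heterochromatin protein HP1, and ADD1 (1251 and 603, 1.22), and HP4 followed at 0.99. Among replication-independent histones BigH1, the germline and early embryo linker histone, had 43 counts in the mutant and 0 in each of the other adult libraries, at least 16.1-fold higher than FRT19A. His2Av stood at -0.71 (1016 counts in the mutant and 1876 in FRT19A) and His3.3A at -0.27, and 0 of 5 tested were lower by 2-fold.

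Genes of the mitochondrial ribosome were lower with little spread between them. All 72 genes passed the mean count, 61 were lower and 0 higher, and the median was -1.33 with a range of -2.34 to -0.48. Its summed level was 1349 CPM in the mutant and 1443 and 1475 CPM in the Hinfp and His1 rescues, against 3165 CPM in FRT19A. The subunit genes mRpS6 (76 counts in the mutant and 434 in FRT19A, -2.34), mRpL20 (148 and 838, -2.33) and mRpL41 (36 and 163, -2.01) led. Both rescues thus lay near the mutant in this list. The cytosolic ribosome had a smaller difference, with a median of -0.41 and 82 of 91 genes within 2-fold. Its summed level was 54599 CPM in the mutant and 53231 and 54765 CPM in the Hinfp and His1 rescues, against 72356 CPM in FRT19A.

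In complex I of the respiratory chain, the NADH dehydrogenase, 14 of 38 tested genes were lower, 6 higher and 18 within 2-fold, with a median of -0.89. TMM scaling made 26 of them lower. The 3 with the largest ratios, ND-49L (192 counts in the mutant and 0 in FRT19A), ND-B14.5AL (131 and 0) and ND-24L (121 and 0), are paralogs of subunits, and fly paralogs of this kind are often testis genes. Of their counterparts, named after the values were seen, ND-49 had 4114 counts in the mutant and 9780 in FRT19A (-1.08), ND-B14.5A 726 and 1792 (-1.13), and ND-24, within 2-fold, 2098 and 4217 (-0.84). Complexes II to V had 18 of 51 higher, 12 lower (23 under TMM scaling) and 21 within 2-fold. The largest ratios were again in paralogs, COX6AL2 (395 and 1), COX4L (665 and 2) and SdhCL (317 and 1). The summed level of complexes II to V was 11066 CPM in the mutant and 11812 and 10583 CPM in the Hinfp and His1 rescues, against 21237 CPM in FRT19A. Complex I summed to 3552 CPM in the mutant and 3916 and 3427 CPM in the rescues, against 6501 CPM in FRT19A. In these lists too both rescues lay near the mutant. Among abundant single genes sesB, the ADP/ATP carrier of the inner membrane, had 34844 counts in the mutant and 89316 in FRT19A (-1.19).

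Of 24 tested genes of DNA replication and the cell cycle 12 were lower, 6 higher and 6 within 2-fold, with a median of -0.98. PCNA, the replication clamp, had 95 counts in the mutant and 508 in FRT19A (-2.25). The 6 subunits of the replicative helicase, named after their values were seen, were all lower: Mcm2 at -1.55, Mcm7 at -1.88, dpa at -1.20, Mcm5 at -2.12 and Mcm6 at -1.52, and Mcm3 had 98 counts in the mutant and 442 in FRT19A. On the higher side were CycB3 (58 counts in the mutant and 6 in FRT19A, 3.44) and the kinase polo (248 and 39, 2.84), which also act in germ cell divisions. The rescues held 61 and 139 counts of PCNA. Intestinal progenitor markers had 2 of 11 higher and 0 lower, with a median of -0.12 and a range of -0.81 to 2.13. The stem and progenitor factor esg, named after its values were seen, stood at -0.81, the low end of the list.

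The lowest list was that of lysosomal alpha-mannosidases, enzymes that trim sugar chains and are abundant in the midgut. All 6 genes were lower, with a median of -3.62. LManIV had 4 counts in the mutant and 524 in FRT19A (-6.86), LManIII 154 and 10682 (-5.95), and LManII 1423 and 22760 (-3.83). LManVI, among the 5 largest drops in CPM, had 6529 and 78394 (-3.41). Their summed level was 709 CPM in the mutant, 4155 CPM in the Hinfp rescue and 3859 CPM in the His1 rescue, against 7827 CPM in FRT19A. LManIII, LManIV and LManVI lie close together on arm 2L, between 8765273 and 8781252, and reads may be shared among them.

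Digestive proteases were lower more often than higher. Of 25 tested Jonah and trypsin genes 11 were lower and 4 higher, with a median of -0.96. Jon99Fii had 595 counts in the mutant and 13053 in FRT19A (-4.28), Jon25Bii 75 and 1418 (-4.07) and Jon99Ci 214 and 4045 (-4.07). The rescues held more: Jon99Ci had 11225 and 15305 counts there, and the summed list stood at 6302 CPM in the mutant and 29719 and 28191.5 CPM in the Hinfp and His1 rescues, against 9632 CPM in FRT19A. Amylases and maltases had 3 of 13 higher and 1 lower, led by Mal-B1 (165 and 15, 3.63), Amyrel (249 and 1380, -2.30) and Amy-p (59503 and 28062, 1.26). Lysozymes had 3 of 7 higher and 2 lower, led by LysP with 138 counts in the mutant and 0 in FRT19A.

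Detoxification genes changed in both directions. Of 80 tested cytochrome P450 genes 18 were higher and 23 lower, of 33 glutathione transferases 3 and 7, and of 31 UDP-glycosyltransferases 3 and 11. Cyp6a8, a P450 induced by foreign compounds, had 7416 counts in the mutant and 378 in FRT19A (4.47), whereas Cyp4d1 had 34 and 998 (-4.70). GstD7 (118 and 1317, -3.31) and GstE5 (366 and 2438, -2.56) led the transferases. Ugt37A3 had 46 counts in the mutant and 1695 in FRT19A (-5.03), Ugt37B1 309 and 4347 (-3.64), and Ugt35C1 11322 and 417 (4.93).

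Among the lowest ratios, Diedel3 had 1 count in the mutant and 550 in FRT19A, a ratio of 0.00205 with an interval of 5.17e-05 to 0.0115, and CG14075 had 3 and 750 (0.0045, interval 0.000927 to 0.0132). CG12374 had 63 counts in the mutant and 14263 in FRT19A (-7.65). The Hinfp and His1 rescues held 57822 and 151919 counts of it. Akh, the fly's counterpart of glucagon, made by neurosecretory cells attached to the front of the gut, had 13 counts in the mutant and 873 in FRT19A (-5.90). CG5107 (148 and 11412, -6.10), CG17192 (42 and 2110, -5.48), CG6295 (63 and 2330, -5.04) and CG16826 (12 and 508, -5.23) likewise had higher counts in both rescues than in the mutant, with 34639 and 51091 counts of CG5107 in the rescues. Spn28F, a serpin, had 21 counts in the mutant and 1246 in FRT19A (-5.72), with 32 and 6 in the rescues. Besides LManVI, the largest drops in CPM were in CG31198 (38260 and 169159, -1.97), Akr1B, an aldo-keto reductase (18178 and 79367, -1.96), the elongation factor eEF1alpha1 (93634 and 172297, -0.71) and sesB. Akr1B stayed low in the rescues, with 17872 and 19424 counts.

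Markers of gut cell types had no common direction. Of 11 enterocyte markers 1 was higher and 4 lower, with a median of 0.05: ninaD, a carotenoid scavenger receptor, had 2791 counts in the mutant and 28403 in FRT19A (-3.18), and betaTry 4488 and 17431 (-1.79). Enteroendocrine peptide genes had 2 of 11 higher and 2 lower, with sNPF at -2.02, CCHa1 at 1.88 and ITP at 1.58. The acid-secreting copper cells had 1 of 6 lower, which was their identity factor lab (64 counts in the mutant and 187 in FRT19A, -1.38).

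**Figure D4:**
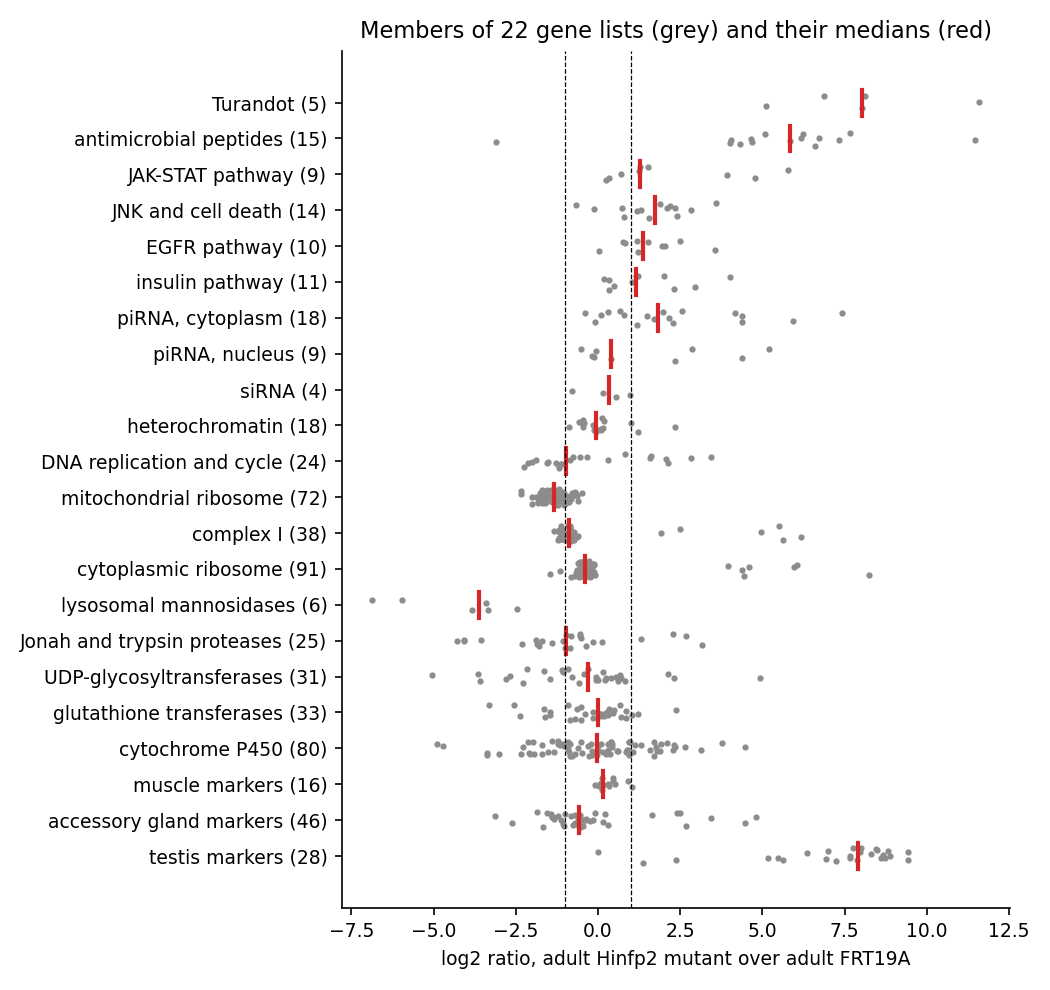
Log2 ratios of adult Hinfp2 over adult FRT19A for the tested members of 22 gene lists. Each grey point is 1 gene, red bars are list medians, numbers in parentheses count the tested members, and dashed lines mark 2-fold. Turandot (median 8.03), antimicrobial peptide (5.84) and testis (7.91) genes lie farthest right and the mannosidases (-3.62) farthest left, while the mitochondrial ribosome forms a narrow band around -1.33.

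Pharate guts with Malpighian tubules of the same alleles gave a measurement that shares no library with the adult pair. There Hinfp2 and FRT19A had 2 libraries each, titled SE and PE, and the edgeR quasi-likelihood fit over the 8 pharate libraries called 0 of 13191 genes after Benjamini-Hochberg adjustment in either direction, with 1948 genes at an unadjusted p under 0.05. With the SE and PE numbers as a replicate block the same test called 533 (4.04%) higher and 965 (7.32%) lower, and DESeq2 without a block called 570 and 474. Of 146 element families the unblocked fit called 2 (1.37%) higher and 0 lower, with 43 at an unadjusted p under 0.05, DESeq2 47 higher and 0 lower, and the blocked fit 90 (61.6%) higher and 1 (0.685%) lower. The unblocked fit was the planned test and the block an alternative to it. Blocked values are given below because the planned fit called 0 genes, so that choice followed its result.

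The directions of the adult pair recurred in the pharate libraries. Of 3177 genes higher in adult mutants and tested in pharate guts, 433 were called higher and 0 lower in the blocked fit, which is 13.6% of the adult list and 90.6% of the 478 genes called higher. Of 1241 lower adult genes, 511 were called lower and 1 higher, which is 41.2% of the adult list and 53.7% of 952. Of the 103 higher element families 90 were called higher, and 95 were higher by 2-fold in the SE pair, against 78.2% of the adult families tested there, and 98 in the PE pair, against 72.8%. In single pairs, 59.8% of higher adult genes were higher by 2-fold in the SE pair, against 20.8% of all adult genes tested there, and 72.4% in the PE pair, against 21.4%. Of lower adult genes 39.4% were lower in the SE pair, against 6.85%, and 57.8% in the PE pair, against 8.12%. Ages differed between mutants and controls at both stages, so this does not separate age from genotype.

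The blocked fit called 68 of 71 mitochondrial ribosomal genes lower and 0 higher (edgeR, Benjamini-Hochberg adjustment). Its list counts stand beside 4.04% higher and 7.32% lower over all 13191 genes. Among replication genes it called 13 of 23 lower, in complex I 25 of 39, and among mannosidases 3 of 6. In complexes II to V 24 of 51 were lower, and in the cytosolic ribosome 32 of 91, with 1 higher. Called higher were 10 of 22 cytoplasmic piRNA genes, 5 of 6 Turandot genes, and 7 of 16 antimicrobial peptides, with 1 peptide lower. Other lists differed between stages. Jonah and trypsin genes had 11 higher and 4 lower of 27 in the pharate SE pair and 9 higher and 5 lower in the PE pair. Lysozymes had 6 of 7 higher and 0 lower in both pairs. Over all adult genes tested there, 20.8% were higher and 6.85% lower in the SE pair, and 21.4% and 8.12% in the PE pair. The testis list had 1 of 34 called higher by the blocked fit, near the 4.04% over all genes. Its pharate medians were 1.21 (SE) and 4.26 (PE). By gene, Drsl3 had a blocked log2 fold change of 11.1 (adjusted p = 0.0253), AGO3 5.47 (0.0253), Socs36E 2.77 (0.027), Ugt37A3 -5.02 (0.0353), PCNA -2.43 (0.0339) and LManIII -3.19 (0.0339), each by edgeR with Benjamini-Hochberg adjustment. Without the block none of these passed. Akh, among the lowest adult ratios, had pharate log2 ratios of 2.19 (SE) and -0.94 (PE).

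**Figure D5:**
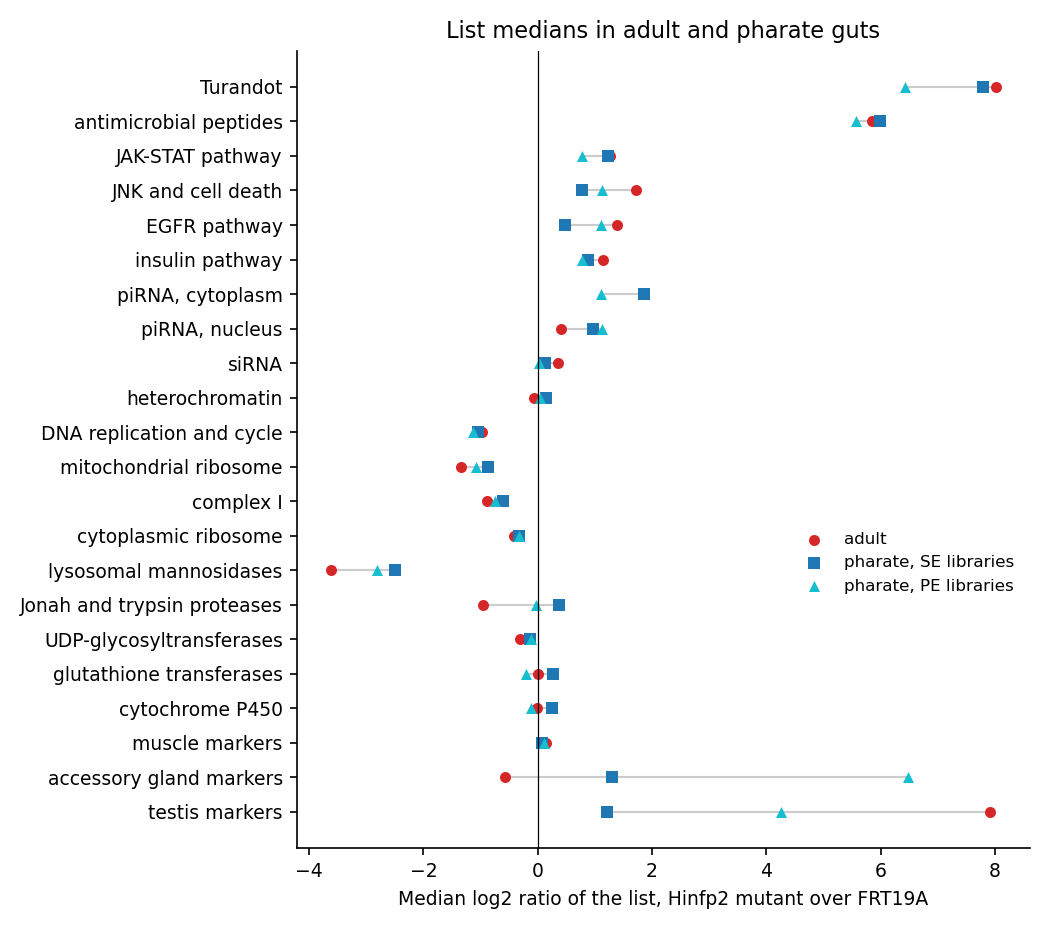
Median log2 ratio of Hinfp2 over FRT19A for the tested members of 22 gene lists in adult intestines (red circles), pharate SE libraries (blue squares) and pharate PE libraries (cyan triangles), with 1 library per genotype behind each symbol. Each median covers the members that passed the mean count in that pair, so the symbols of a list can cover different genes. For Turandot and mitochondrial ribosome genes all 3 symbols lie on the same side of 0. Accessory gland genes stand at -0.57 in adults (46 members) and at 6.48 in the PE pair (40 members), while their SE symbol rests on 2 members.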

How the data were processed

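The adult table holds the authors' deposited read counts for 15651 genes and 156 element families, with deposited log2 fold changes against the adult control. Per the submitters' processing notes, its tools were edgeR 3.28.1, DESeq2, featureCounts 1.6.2, STAR 2.5.3a, Bowtie2 2.3.5 and Trimmomatic 0.39, and those of the deposited pharate counts featureCounts 1.5.2 and STAR 2.5.3a, with no role given. Strandedness is not given in the sources used here. The labels describe both ribosomal RNA removal and poly-A selection. Another 80 per-sample columns were not used.

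The adult ratios were computed from counts scaled on gene rows. The authors' deposited log2 values lie 0.24 below these ratios (median over 9201 genes). Pharate counts were tested with edgeR 4.0.16 in R 4.3.3 (filterByExpr minimum count 10, TMM, 2-sided, threshold 0.05), tested on simulated data, and elements took the genes' scaling. DESeq2 1.42.0 was an alternative. No label ties the pharate libraries to separate cultures. The p-values therefore describe the spread of these libraries, and that may be technical. Same-numbered libraries deviated together (6 pair correlations of 0.66 to 0.85 over 13191 genes), so the numbers pair the samples.

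Coordinates and symbols are from Ensembl's BDGP6 annotation, and 15580 gene rows matched. Members, lists, fold and floor were chosen with earlier results of these data known. Named genes were Hinfp, the 12 largest ratios each way at a mean of 10 CPM, and the 5 largest CPM differences each way. The 10 highest and 5 lowest element families at a mean of 1 CPM were named as well. For lists the rule covered the 3 largest ratios in each list described, and not all of these are printed. Alternatives were other scalings, filters and folds.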

Additional observations from a re-analysis of the deposited data

Results flagged for a closer look

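A set of 6983 genes had a mean of at least 20 counts in the adult pair and in both pharate pairs. It was also limited to genes with a mean of at least 10 CPM over the adult pair, so weaker genes were not counted. Of these 6983, 6 were past 2-fold in the adult pair and past 2-fold the other way in both pharate pairs. All 6 were lower in adults. The digestive proteases Jon25Bii and Jon25Bi had adult log2 ratios of -4.07 and -3.55, and pharate ratios of 4.81 and 4.76 in the SE pair and 2.32 and 2.33 in the PE pair. Their pharate ratios rest on low levels. The SE pair held 146 and 188 counts in Hinfp2, against 6 and 8 in FRT19A. The PE pair held 179 and 217, against 44 and 53. Adult FRT19A stood at 70.0 and 84.8 CPM, and pharate FRT19A at 0.21 and 0.28 CPM (SE) and 1.64 and 1.97 CPM (PE). The lysozymes LysC and LysD, near-identical neighbours on arm 3L, had adult ratios of -1.91 and -1.66, and pharate ratios of 3.51 and 2.98 (SE) and 1.90 and 1.59 (PE). LysC had 29 (SE) and 80 (PE) counts in pharate FRT19A. CG30395 stood at -1.15 in adults and at 2.98 and 5.65 in pharate guts, where FRT19A held 18 (SE) and 3 (PE) counts of it. Ugt50B3 stood at -1.09 in adults and at 2.18 and 1.92 in pharate guts. The difference between stages was not tested, since the adult genotypes have 1 library each.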

How the results depend on the processing

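Higher genes numbered 1862 at a mean count of at least 100 and 2124 at 4-fold, and 1416 among genes with at least 1 CPM in FRT19A, in place of 3194. Lower genes numbered 247 at 4-fold. TMM, DESeq2 size factors and scaling on gene and element rows together moved the median of all genes by -0.23, -0.15 and -0.24, and each gave 6 lists with a median of -1 or below in place of 2. The number of lower element families became 1 under TMM, under the joint scaling, without a filter on low counts and with the authors' deposited values. TMM also moved small list counts, to 1 of 6 neuronal, 0 enterocyte, 0 muscle and 1 glutathione transferase genes higher, and to 3 amylase and maltase, 2 copper cell and 1 progenitor genes lower. Pharate genes called were 533 higher and 965 lower with the replicate block, 570 and 474 with DESeq2 without it, and 0 in edgeR without it. Called pharate families numbered 90 higher and 1 lower with the replicate block, 47 higher with DESeq2, 11 with the 4 libraries alone, 0 without a filter, and 14 higher and 4 lower when scaled on elements. Leaving out 1 library gave 0 to 11. Genes shared with the adult lists were 433 higher and 511 lower with the block, and 418 and 342 with DESeq2. The cause was not tested. Among single genes, families and lists 69 values moved and 691 did not under the other scalings. Each scaling shifted all log2 ratios by the same amount, 0.24 at most. A direction past 2-fold could therefore not reverse. The filters at 1 CPM and without the testis list were chosen after seeing the data. With 1 adult library a genotype, the spread between animals is unknown.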
